A study of Mus musculus with 24 samples.

Results

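The mice described here are the 12 that carry replicate numbers 1, 2, 5 and 6 in the sample titles of 3 groups, out of 24 mice in the series. They were chosen by their numbers: replicates 5 and 6 (high-numbered, 6 mice) were set against replicates 1 and 2 (low-numbered, 6 mice) of the control, STZ and STZ 0.1% quercetin groups, with group as a block. The contrast was selected on liver expression values of these same mice, Dbp, Arntl and Npas2 among them. Differences between these 12 mice are therefore given as a description and are not used as evidence. What the numbers record is not given in the sources used here, nor is the clock hour at which any mouse was killed. The arrays of the 0.5% quercetin group and of replicates 3 and 4 played no part in the choice, and tests are reported on those. The 0.5% quercetin tests take their estimate of the spread from all 24 mice, the 12 described here included. Their p-values are thus not independent of the values that chose the contrast.

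The series measured liver RNA of male BALB/c mice on Affymetrix arrays, 1 array per mouse, in 4 groups of 6. Control mice received no streptozotocin (STZ, a toxin of pancreatic beta cells that also alkylates DNA) and ate the AIN93G diet. The STZ group received 185 mg/kg STZ and the same diet, and the other groups received the same dose with 0.1% or 0.5% quercetin, a plant flavonol, in the diet for 14 days. Injected mice entered the study only on their non-fasting glucose, so each STZ group is a selected one. All were 6 weeks old on arrival, ate freely, were housed 3 to a cage, and were in the dark from clock hour 8 to 20. The labels do not tie cages to mice, so mice of 1 group that shared a cage cannot be identified.

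The hepatic clock is a transcriptional loop. ARNTL (BMAL1) pairs with CLOCK or NPAS2, binds E-boxes and drives the Per, Cry, Nr1d, Bhlhe and Ciart repressors and the PAR bZIP factors DBP, TEF and HLF, which in turn act on D-boxes of many metabolic genes. NFIL3 competes for the D-boxes, and the NR1D repressors hold down Arntl, Npas2, Clock and Nfil3. Transcripts of Arntl and Npas2 peak far from that of Dbp within the daily cycle of mouse liver, so the levels of these genes are a common readout of circadian phase.

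Promoters of 4 clock genes are shown because the results below turn on these genes, and to show which of the windows hold the elements that the loop acts on. Each is the 250 bases before the start site in RefSeq (GRCm38.p6), written 5′ to 3′ on the gene's strand. Capitals mark exact matches to CACGTG (E-box), TTATGTAA or TTACATAA (D-box), or AGGTCA or TGACCT (ROR core motif). Dbp and Arntl have none in this window, which says only that these letters are not there. The windows lie at chr7:45704997-45705246 (Dbp, plus strand), chr7:113207215-113207464 (Arntl, plus strand), chr15:81802423-81802672 (Tef, plus strand) and chr3:95882229-95882478 (Ciart, minus strand).
Dbp: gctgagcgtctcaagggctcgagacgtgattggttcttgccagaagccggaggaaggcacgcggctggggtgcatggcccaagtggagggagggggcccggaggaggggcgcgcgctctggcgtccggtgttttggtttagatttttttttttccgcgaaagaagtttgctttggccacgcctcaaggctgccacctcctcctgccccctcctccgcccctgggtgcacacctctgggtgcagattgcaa
Arntl: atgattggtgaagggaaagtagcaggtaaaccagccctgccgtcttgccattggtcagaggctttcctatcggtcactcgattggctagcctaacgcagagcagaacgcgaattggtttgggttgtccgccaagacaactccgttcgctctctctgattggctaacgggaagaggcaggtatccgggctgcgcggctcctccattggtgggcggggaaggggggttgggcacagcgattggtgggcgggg
Tef: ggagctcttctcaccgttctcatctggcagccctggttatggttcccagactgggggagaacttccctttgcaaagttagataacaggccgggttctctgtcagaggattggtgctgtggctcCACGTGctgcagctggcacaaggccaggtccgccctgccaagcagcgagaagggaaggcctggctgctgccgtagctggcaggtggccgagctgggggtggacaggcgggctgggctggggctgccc
Ciart: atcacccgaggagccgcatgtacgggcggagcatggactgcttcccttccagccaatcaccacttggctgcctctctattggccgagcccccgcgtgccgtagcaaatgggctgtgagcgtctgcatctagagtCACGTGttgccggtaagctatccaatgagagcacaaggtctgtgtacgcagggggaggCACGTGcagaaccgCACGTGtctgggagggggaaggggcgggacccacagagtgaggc

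Tef, whose protein binds D-boxes, has 1 E-box, beginning at -127 from the start site. Ciart, which encodes a repressor of ARNTL-CLOCK, has 3, beginning at -116, -58 and -44. An E-box was present in a window of 5 of the 16 clock genes with a RefSeq window (31.2%), against 6.86% of all 27025 genes in the table and 9.73% of the 10597 tested genes with a window. Among genes called higher by number it was in 2 of 13 (15.4%), and among those called lower in 1 of 19 (5.26%). The D-box was found in 1 of the 16 clock genes, Per3 (6.25%), and in 0.977% of all genes. The ROR core motif was found in 4 clock genes (25.0%), Clock, Per1, Nr1d2 and Nfil3, and in 15.8% of all genes. The matches are a description of letters, and the motifs do not overlap in the windows shown.

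The arrays gave 13130 genes for testing, and 2 features of the libraries come before the results. The mice labelled 0.5% quercetin, replicates 5 and 6, stood apart from the other mice labelled as STZ-treated: Cdkn1a, which encodes the p53-induced cell cycle inhibitor p21, was at 9.29, 8.22, 7.70 and 8.24 in replicates 1 to 4 and at 5.01 and 4.72 in replicates 5 and 6. All mice of the STZ and 0.1% quercetin groups lay between 7.52 and 8.91, and the 6 controls between 4.85 and 6.04, so 1 of these 2 mice was within the control range and 1 below it. Their p53 targets thus go against the STZ part of their label. Whether these mice were injected, or whether labels were exchanged, was not tested, and they are kept under their labels, so each value for replicates 5 and 6 below is that of the mice so labelled. Differences in 0.5% quercetin are also given for replicates 3 and 4, each pair against 1 and 2. These levels, and all levels below, are log2(intensity + 16) after quantile normalization. A gene at background sits near 4, and differences are on that log2 scale, which understates changes of dim genes.

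The marker lists gave liver throughout. The mean level of 9 hepatocyte markers lay between 12.2 and 12.4 in every low-numbered and high-numbered mouse of the 3 groups. Quantile normalization gives every array the same set of values and holds such bright genes close together, so this does not measure hepatocyte content. The median difference of these markers in the 3 groups was -0.0095 after quantile normalization and -0.20 with median scaling. Mean raw intensity was 76.1 ± 14.9 in low-numbered and 83.3 ± 8.60 in high-numbered mice of the 3 groups (SD, n = 6 each). The 3′ minus 5′ log2 difference of Gapdh, a sign of RNA integrity, was -0.23 ± 0.13 and -0.28 ± 0.14, and that of actin 1.06 ± 0.11 and 1.22 ± 0.10. Over all genes, the deviations of same-numbered mice of different groups had a mean correlation of 0.0118 over 36 pairs. Single pairs ran from -0.14 to 0.32, and such a mean cannot settle whether the numbers pair mice.

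In the 3 groups of the rule, Dbp was higher and Arntl, Npas2 and Nfil3 were lower in high-numbered mice. Dbp was 7.07 and 7.38 in low-numbered controls and 8.91 and 8.96 in high-numbered ones. It was 5.56 and 7.24 against 8.56 and 8.17 in STZ mice. It was 8.26 and 7.54 against 9.36 and 9.24 in 0.1% quercetin mice. The low-numbered and high-numbered mice did not overlap in any of the 3 groups, and over all 3 the highest low-numbered level (8.26) exceeded the lowest high-numbered one (8.17). The difference was 1.69 ± 0.22 (SE, as for every difference below), or 3.23-fold, with 1.71 in control, 1.96 in STZ and 1.40 in 0.1% quercetin. Replicate number class (1 and 2, or 5 and 6) held 81.5% of the within-group sum of squares of Dbp. A second Dbp probe set gave 1.45. Because these are whole-liver samples, a lower level can come from fewer cells of a type or from less RNA per cell, and these cannot be told apart.

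Arntl, the activator at the head of the loop, was 6.34 and 5.99 in low-numbered controls and 4.91 and 5.55 in high-numbered ones. In STZ mice it was 6.38 and 6.16 against 5.12 and 5.20. In 0.1% quercetin mice it was 5.76 and 6.20 against 4.10 and 4.16, close to background. No high-numbered mouse reached the lowest low-numbered level of 5.76, and the difference was -1.30 ± 0.16 (2.46-fold lower). A second Arntl probe set moved less, by -0.28, so the size for this gene depends on the probe set.

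Npas2, the partner that substitutes for CLOCK, was 5.47 and 5.12 against 4.05 and 4.34 in control, 5.66 and 5.08 against 4.34 and 4.59 in STZ, and 4.60 and 5.20 against 4.18 and 4.28 in 0.1% quercetin. Its high-numbered levels were close to background, and the difference of -0.89 ± 0.13 is held down by the constant of 16. Its second probe set gave -0.45. Nfil3, the D-box competitor, was 7.36 and 7.57 against 6.81 and 6.78 in control, 7.18 and 7.06 against 6.17 and 6.41 in STZ, and 6.56 and 7.01 against 5.49 and 5.72 in 0.1% quercetin. It differed by -0.89 ± 0.11, and the classes were separate within each group.

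**Figure D1:**
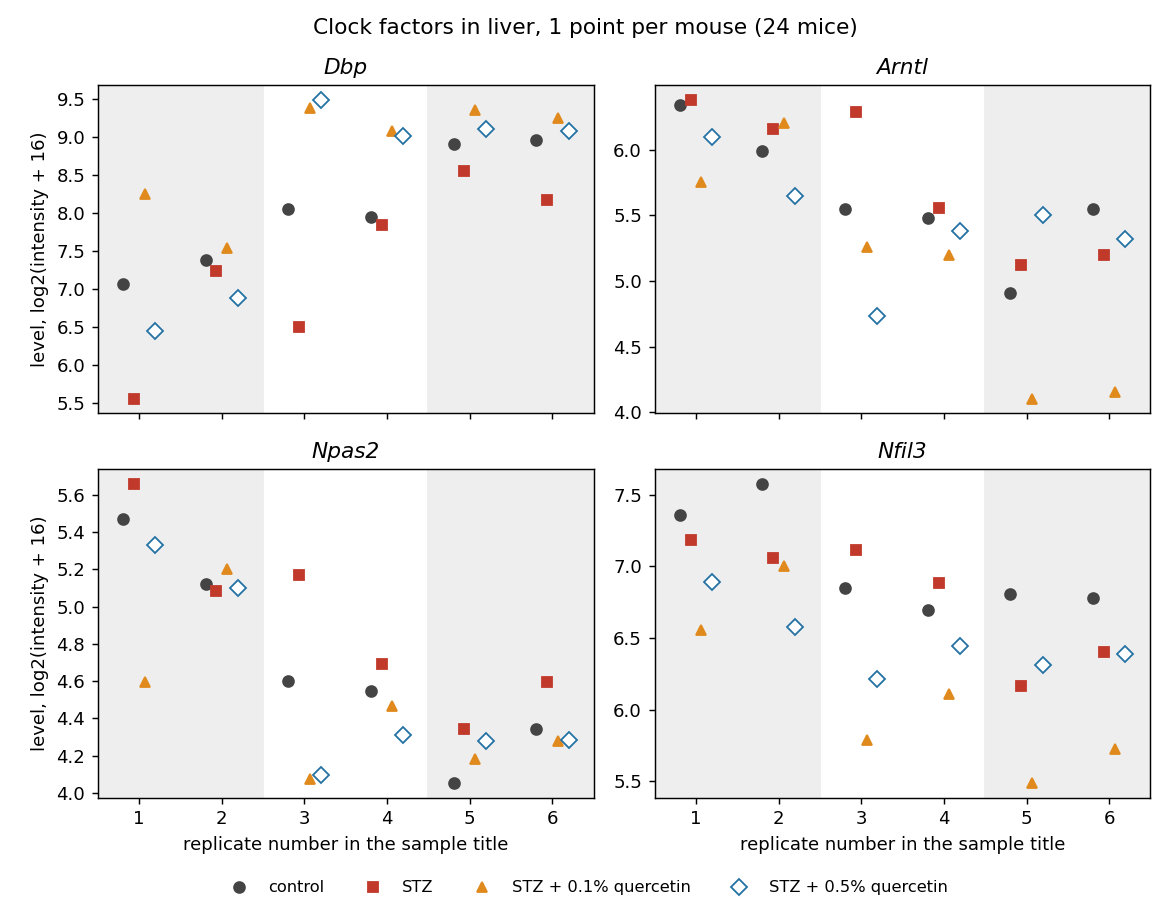
Levels of Dbp, Arntl, Npas2 and Nfil3, log2(intensity + 16), in each of 24 mice, by replicate number (horizontal) and group (colour and shape); shaded bands hold replicates 1 and 2 and replicates 5 and 6. In the 3 groups of the rule (filled symbols) Dbp is higher and the other genes are lower at 5 and 6 than at 1 and 2, and 0.5% quercetin Dbp (open diamonds) is 6.45 and 6.88 at 1 and 2 and 9.02 to 9.49 at 3 to 6.

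The remaining clock genes followed with smaller or uneven differences. Tef differed by 0.67 ± 0.13 and Per2, a core repressor, by 0.77 ± 0.15. Both were called, although other probe sets gave 0.34 and 0.12 for Tef and 0.40 and 0.16 for Per2. Hlf (0.48 ± 0.13), Per1 (0.88 ± 0.24), Nr1d2 (0.62 ± 0.15) and Clock (-0.44 ± 0.15) did not pass the threshold. Clock differed by -0.91 in 0.1% quercetin and 0.09 in control. Nr1d1, which encodes REV-ERB alpha, was -0.41 ± 0.19, opposite in sign to its paralogue Nr1d2. A second Nr1d2 probe set gave 0.0034, so this contrast of the paralogues depends on the probe set. Nr1d1 was also at 5.18 in 0.1% quercetin replicate 6, with the nearest mouse of that group at 6.33. Other probe sets gave 0.11 for Hlf and -0.32, -0.26 and 0.04 for Clock. Cry1 (-0.19 ± 0.13), Rora (-0.13 ± 0.12) and Bhlhe41 (0.08 ± 0.10) were not called either, nor were the repressors Cry2 (0.28 ± 0.12) and Per3 (0.31 ± 0.15).

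By list, 2 of the 4 clock activators tested were called lower and all 4 lay below 0 (median -0.67). Of 10 clock repressors 1 was called higher and 8 lay above 0 (median 0.29). Of the 4 PAR bZIP factors and Nfil3, 2 were called higher and Nfil3 lower (median 0.58). The median over all 13130 genes was 0.0022. Of all genes, 16 were called higher (0.122%) and 20 lower (0.152%) at a limma adjusted p under 0.05. On the values as deposited, with no normalization, the median of all genes was 0.118 and the split was 32 higher and 8 lower. These shares belong to the contrast that chose the mice, and nothing is read from them. In addition, 172 genes (1.31%) had both high-numbered mice above both low-numbered ones in each of the 3 groups, and 164 (1.25%) had both below. Of the 36 called genes, 30 were separated in this way.

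**Figure D2:**
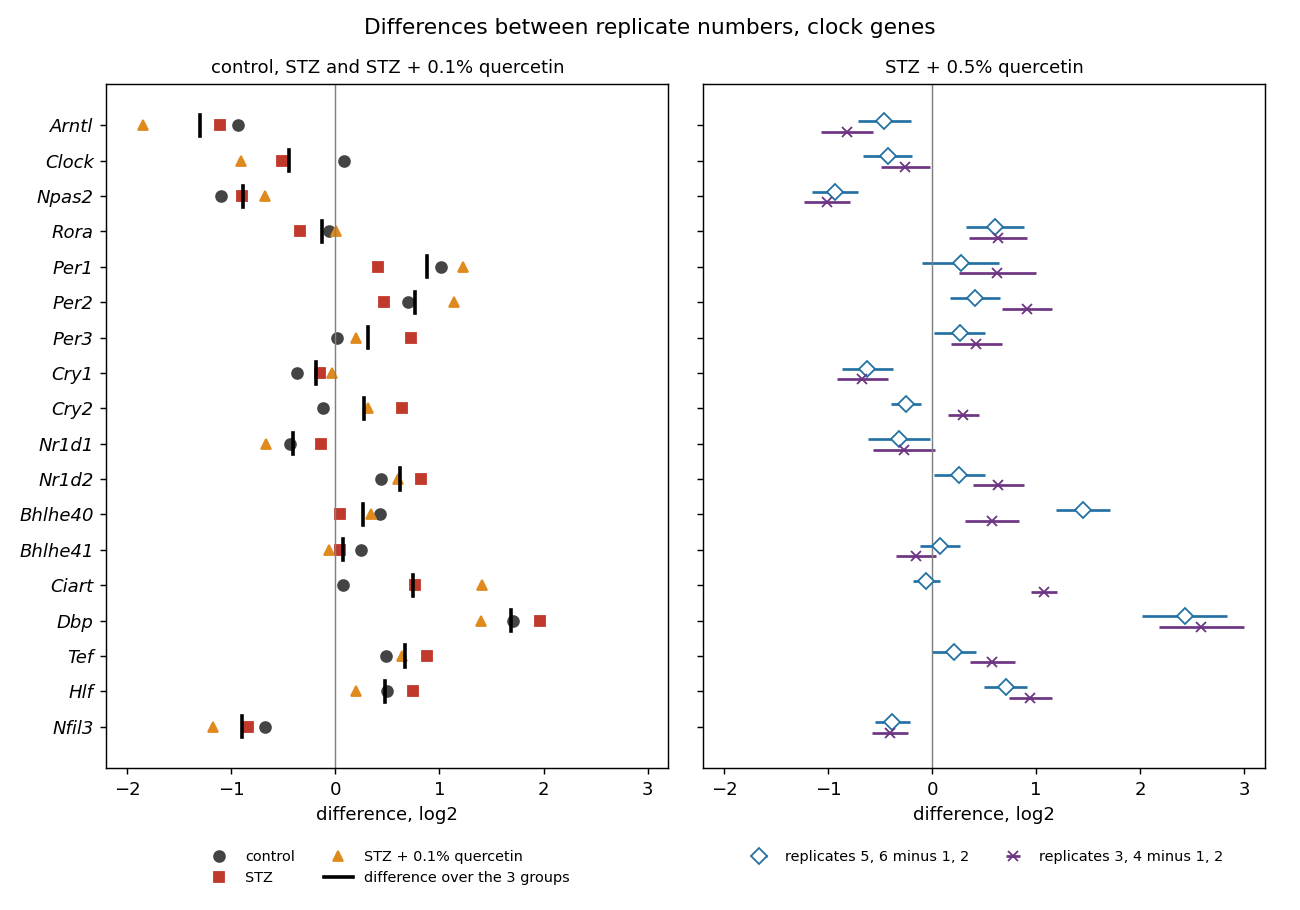
Differences by replicate number for 18 clock genes on the log2 scale: on the left replicates 5 and 6 minus 1 and 2 in control, STZ and 0.1% quercetin (symbols) and over the 3 groups (black bars), on the right the 0.5% quercetin mice for replicates 5 and 6 and for 3 and 4, each minus 1 and 2, with SE bars. Dbp is far right and Npas2 left of 0 in both panels, while Ciart is at 1.07 for replicates 3 and 4 and at -0.06 for 5 and 6 of 0.5% quercetin.

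Of 18 clock output genes, which the loop drives in metabolism, 2 were called higher in high-numbered mice, with 12 above 0 and 6 below (median 0.48), against 6671 of all 13130 genes above 0. One was Cyp7a1, which encodes cholesterol 7-alpha-hydroxylase and sets the pace of bile acid formation. Cyp7a1 was 4.63 and 4.69 in low-numbered controls and 7.72 and 6.96 in high-numbered ones, and 4.83 and 4.41 against 7.51 and 8.27 in STZ mice. In 0.1% quercetin it was 6.32 and 4.83 against 5.36 and 7.05, which overlap. Its difference was 2.19 ± 0.41 (4.57-fold), and a second probe set gave 0.97.

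The other was Alas1, the first enzyme of haem synthesis, at 6.15 and 6.55 against 8.02 and 7.34 in control, 8.63 and 8.63 against 8.70 and 10.49 in STZ, and 7.94 and 7.90 against 10.97 and 10.62 in 0.1% quercetin. Its difference was 1.72 ± 0.31, and in the STZ group it rested on replicate 6. A second Alas1 probe set gave 0.87. Upp2, a uridine phosphorylase (1.33 ± 0.28), and Elovl3, a fatty acid elongase (-1.90 ± 0.40), were separated within each group but not called, and are named because of their values. In Elovl3 the 0.1% quercetin difference was -3.65 and the control one -0.57.

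Most called genes are in none of the clock lists. Ypel2, a gene whose function is little known, was 7.63 and 7.67 against 6.42 and 6.57 in control, 7.44 and 7.49 against 6.69 and 6.95 in STZ, and 7.04 and 7.42 against 6.09 and 5.86 in 0.1% quercetin, with no overlap over all 12 mice and a difference of -1.02 ± 0.11. Pdgfc, a platelet-derived growth factor (-0.86 ± 0.09), had 92.9% of its within-group sum of squares with number class, the highest share of the 36. Pnrc1, a nuclear receptor coactivator (-0.78 ± 0.09), and Chka, which encodes choline kinase (-0.90 ± 0.13), were also separated in each group. So were Lgalsl (-0.76), Tacc2 (-0.71) and the cyclin gene Ccng2 (-0.70).

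Among the higher genes were Fmo2, a flavin monooxygenase (1.30 ± 0.25), and Dusp6, a phosphatase of ERK kinases (0.73 ± 0.13). Smaller differences, from 0.52 to 0.64, were those of Efhd2, Ldlrad3, Arhgef26, Hnrnpd and Gmnn, which encodes the replication inhibitor geminin. Pim3, a serine/threonine kinase (1.08 ± 0.19), Arhgap9 (-1.12 ± 0.20), and Cpeb4, which binds polyadenylation elements (-0.48 ± 0.08), are named here because they were also called in 0.5% quercetin. Other probe sets bright enough to be tested gave 0.84 and 0.09 for Pim3 and -0.26 and 0.04 for Arhgap9. Those of Cpeb4 gave -0.44 and -0.05. Arhgap9 overlapped in control (6.90 and 7.61 against 6.55 and 7.02) and Pim3 in STZ (7.20 and 8.56 against 8.73 and 8.50). Over the 36, number class held 67.2% to 92.9% of the within-group sum of squares. Where a called gene had other probe sets (26 genes), 34 of 39 of these had the same sign. The size often depended on the probe set: others gave -0.41 for Pdgfc, -0.46 and -0.34 for Chka, and 0.94, 0.79 and 0.41 for Fmo2. Those of Ccng2 (-0.69) and Efhd2 (0.67) were close to the values above.

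The 0.5% quercetin mice were not used to choose the contrast, and Dbp and Npas2 differed there in the same direction. Dbp was 6.45 and 6.88 in replicates 1 and 2, 9.49 and 9.02 in replicates 3 and 4, and 9.11 and 9.08 in replicates 5 and 6. Both later pairs lay above the first, and the middle pair was as high as the last. Replicates 5 and 6 minus 1 and 2 gave 2.43 ± 0.41 (5.38-fold, limma adjusted p = 0.00354), and replicates 3 and 4 minus 1 and 2 gave 2.59 ± 0.41 (adjusted p = 0.0165). Without replicate 1 the first of these was 2.21 with an adjusted p of 0.0607, and it stayed under the threshold without replicate 2, 5 or 6 (largest adjusted p 0.0315). The difference for the middle pair lost its call without any 1 of replicates 1 to 4, at 2.35 to 2.82 with adjusted p from 0.0629 to 0.326.

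Npas2 was 5.33 and 5.10, then 4.10 and 4.31, then 4.28 and 4.29, so the middle and last pairs were close to background and neither overlapped the first. It fell by 0.93 (SE 0.22, adjusted p = 0.0324), and the middle pair gave -1.01 (adjusted p = 0.135). For the last pair the second probe sets gave smaller differences, -0.41 for Npas2 and 1.47 for Dbp. Leaving out any 1 of the 4 mice ended the Npas2 call, with adjusted p from 0.0663 without replicate 2 to 0.225 without replicate 1. Arntl was 6.10 and 5.65, then 4.73 and 5.38, then 5.51 and 5.32: the last pair lay below the first, by -0.46 ± 0.25 (adjusted p = 0.367). The middle pair differed by -0.82 (adjusted p = 0.302). Nfil3 gave -0.38 ± 0.17 (adjusted p = 0.253) and -0.41 (adjusted p = 0.475). Neither gene passed the test. Without replicate 1 the last-pair differences were -0.23 for Arntl and -0.23 for Nfil3, and without replicate 3 the middle-pair ones were -0.49 and -0.29. All stayed below 0 with any 1 mouse left out.

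In 0.5% quercetin, replicates 5 and 6 against 1 and 2, 112 of all genes were higher (0.853%) and 182 lower (1.39%). With the spread taken from the 6 arrays of 0.5% quercetin alone, 35 were higher and 85 lower. On the values as deposited the median of all genes was -0.18 there and the split was 9 higher and 117 lower. The Gapdh 3′ minus 5′ difference was -0.27 in replicates 1 and 2, -0.34 in 3 and 4 and -0.02 in 5 and 6, and with it as a covariate 151 genes were called in place of 294. Of the 36 genes called in the 3 groups, 6 were called there with the same sign and 0 with the opposite one: Dbp, Npas2, Ypel2, Pim3, Arhgap9 and Cpeb4. Without a threshold, 30 of the 36 (83.3%) had the same sign in these mice, against 52.8% of all genes. Ypel2 was 7.78 and 7.37, then 5.94 and 6.59, then 6.39 and 6.13, with a difference of -1.31 (SE 0.25, adjusted p = 0.00774) for the last pair. Pim3 was 7.62 and 7.71, then 9.18 and 8.84, then 8.84 and 9.05, a difference of 1.28 (SE 0.31, adjusted p = 0.0331). In both, each of the 4 later mice lay beyond both of the first pair.

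Arhgap9 was 7.19 and 7.62, then 6.34 and 6.84, then 6.12 in both, and it fell by 1.28 for the last pair (SE 0.27, adjusted p = 0.0148). The middle pair gave -0.81 (adjusted p = 0.327). Cpeb4 was 8.80 and 8.67, then 7.82 and 8.11, then 7.95 and 7.92, with -0.80 for the last pair (SE 0.18, adjusted p = 0.0199) and -0.77 for the middle one (adjusted p = 0.146). In both genes neither later pair overlapped the first. With 1 mouse left out, Pim3 and Cpeb4 lost the call in every case, with adjusted p from 0.0868 to 0.181 for Pim3 and from 0.0559 to 0.160 for Cpeb4. Ypel2 lost it without replicate 1 (0.114) and without replicate 6 (0.0751). Arhgap9 kept it without replicate 1 (0.049) and lost it without replicates 2, 5 and 6 (0.0764 to 0.118). In all these fits the direction was the same. For the last pair, other probe sets bright enough to be tested gave 0.66 and 0.07 for Pim3 and -0.55 and -0.38 for Arhgap9. Those of Cpeb4 gave -0.47 and -0.30, and those of Ypel2 -0.96 and -0.35.

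Without the 2 mice that stood apart, replicates 3 and 4 against 1 and 2 of 0.5% quercetin gave 4 genes higher (0.0305% of those tested) and 0 lower (0%), with 1205 genes at an unadjusted limma p under 0.05. The 4 were Dbp, Ciart, Mfsd2a and Lipg, of which Lipg is named because it was called. Mfsd2a, a carrier of lysophospholipids that was 6.64 and 6.29 in replicates 1 and 2 and 8.78 and 8.54 in replicates 3 and 4, rose by 2.19 ± 0.24 (adjusted p = 0.000438). Lipg, endothelial lipase, rose by 1.20 ± 0.19 (adjusted p = 0.0165). With any 1 of replicates 1 to 4 left out, Ciart and Mfsd2a remained called (largest adjusted p 0.0343 for each) and Lipg did not (smallest adjusted p 0.102). Of the 36 genes called in the 3 groups, 31 (86.1%) had the same sign in this comparison, against 56.9% of all genes. Both comparisons in 0.5% quercetin share replicates 1 and 2, so they are not separate tests.

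**Figure D3:**
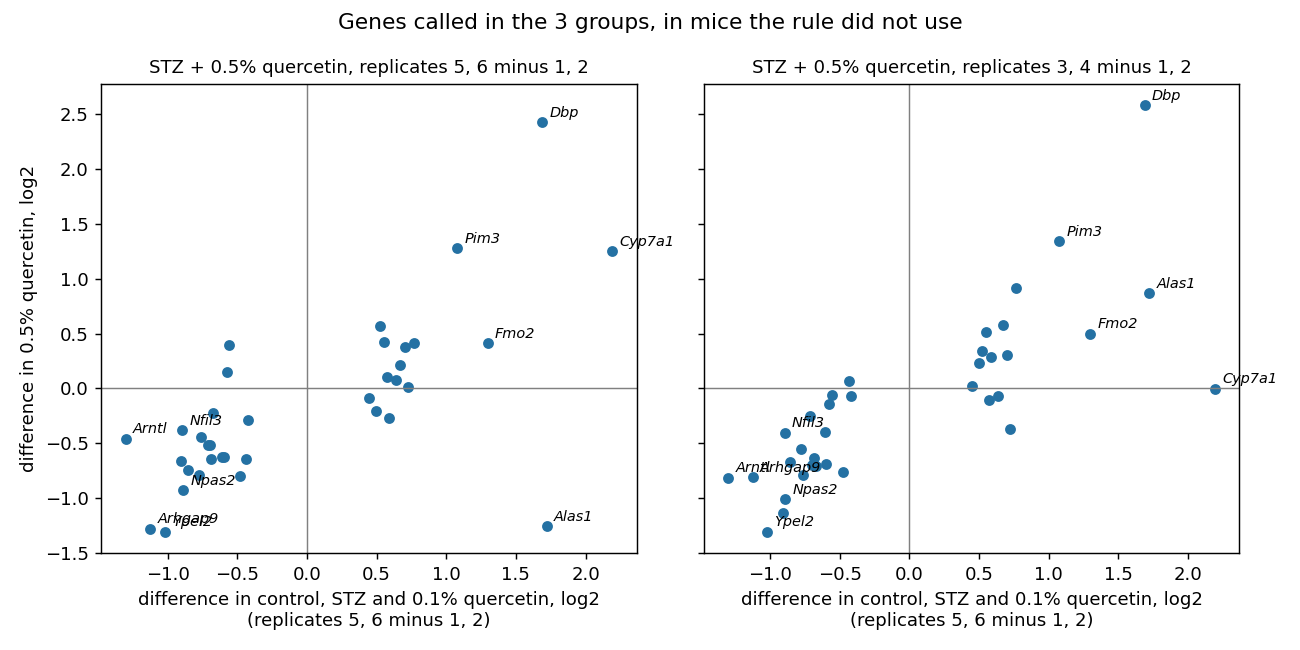
Difference of the 36 genes called in the 3 groups (horizontal, replicates 5 and 6 minus 1 and 2, log2) against their difference in 0.5% quercetin (vertical, log2), for replicates 5 and 6 on the left and 3 and 4 on the right, each minus 1 and 2. Points in the lower left and upper right have the same sign, 30 of 36 on the left and 31 of 36 on the right, and Alas1 moves from -1.26 on the left to 0.87 on the right.

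Clock lists in 0.5% quercetin followed the same order with fewer calls. Of the 18 clock genes tested, 15 (83.3%) had the sign they had in the 3 groups for replicates 5 and 6, and 16 (88.9%) for replicates 3 and 4. Clock activators had medians of -0.44 and -0.54 in these comparisons, repressors 0.17 and 0.50, and PAR bZIP factors with Nfil3 0.46 and 0.76. On the values as deposited the repressor median for replicates 5 and 6 was -0.0015, against -0.18 for all genes. Bhlhe40, a repressor of the loop, rose by 1.45 (SE 0.26, adjusted p = 0.0056) for replicates 5 and 6. It was 6.50 and 6.80 in replicates 1 and 2, 7.38 and 7.07 in 3 and 4, and 8.01 and 8.18 in 5 and 6, and the middle pair gave 0.58 (adjusted p = 0.51). Its 3-group difference was 0.27. Csnk1d, the kinase that marks PER proteins for degradation, rose by 1.50 (SE 0.31, adjusted p = 0.0139), and replicates 3 and 4 gave 1.41 (adjusted p = 0.135). Without replicate 1 the Bhlhe40 value was 1.30 (adjusted p = 0.0857) and without replicate 6 it was 1.36 (0.0567). Csnk1d, named because it was called, lost its call without replicate 1, 2 or 5 (0.0823 to 0.152).

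Ciart, Mfsd2a and Cyp8b1 were the 3 genes (0.0228%) past the threshold in a limma F test of unequal differences by number in control, STZ and 0.1% quercetin. That fit uses the mice that chose the contrast, so it serves here to pick genes for description and not as a test. Ciart lay between 4.04 and 4.17 in all 6 controls, at background. In STZ it was 4.05 and 4.17, then 4.09 and 4.04, then 4.72 and 5.02, and in 0.1% quercetin 4.32 and 4.05, then 5.23 and 5.21, then 5.62 and 5.56. In 0.5% quercetin it was 4.20 and 4.07, then 5.18 and 5.25, then 4.12 and 4.04, a difference of 1.07 ± 0.13 for the middle pair (adjusted p = 0.000551). Ciart was thus above 4.7 in replicates 5 and 6 of STZ, replicates 3 to 6 of 0.1% quercetin and replicates 3 and 4 of 0.5% quercetin. Its promoter carries the E-boxes shown above.

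Mfsd2a was 5.80 and 5.91 in low-numbered controls and 6.95 and 6.74 in high-numbered ones, 7.31 and 8.30 against 7.05 and 7.38 in STZ, and 6.65 and 6.69 against 8.58 and 8.61 in 0.1% quercetin. The differences were 0.99, -0.59 and 1.92. Cyp8b1, the sterol 12-alpha-hydroxylase of bile acid synthesis, was 9.47 and 9.40 against 8.59 and 9.02 in control, 9.48 and 9.74 against 10.23 and 9.75 in STZ, and 9.97 and 9.58 against 6.75 and 7.81 in 0.1% quercetin. Its differences were -0.63, 0.38 and -2.50, so the 2 high-numbered 0.1% quercetin mice lay apart. As contrasts within each group, control gave 0 called genes of 13130, STZ 4 and 0.1% quercetin 117. There were 886, 958 and 1454 genes at an unadjusted limma p under 0.05, where a share of 0.05 of the 13130 is expected with no difference. The spread in these contrasts was taken from all arrays of the series, so these groups were not fitted alone here. These single-group counts come from the contrast that chose the mice.

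**Figure D4:**
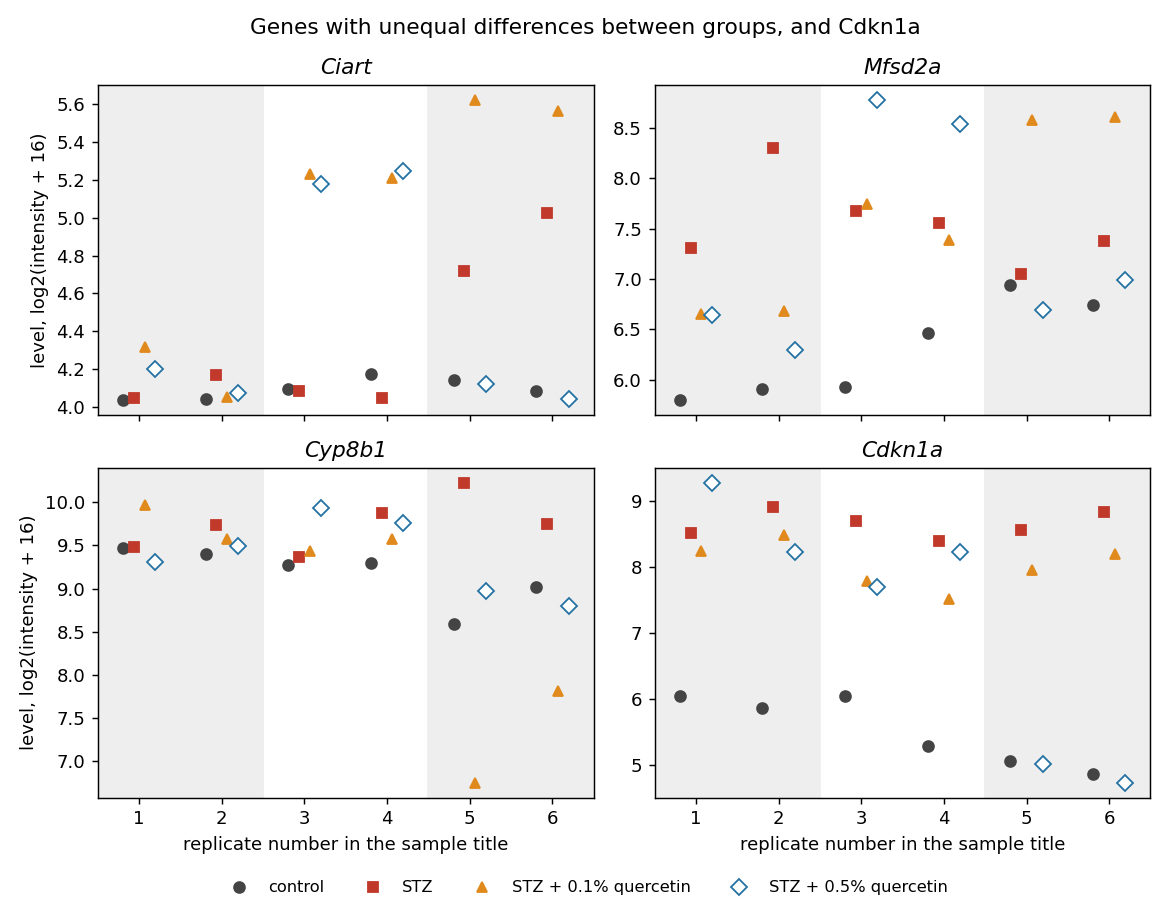
Levels of Ciart, Mfsd2a, Cyp8b1 and Cdkn1a, log2(intensity + 16), in each of 24 mice by replicate number and group; shaded bands hold replicates 1 and 2 and replicates 5 and 6. Ciart is above 4.7 in 8 mice only, all STZ-treated, and Cdkn1a in 0.5% quercetin replicates 5 and 6 is 5.01 and 4.72, with the controls between 4.85 and 6.04.

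The 18 clock output genes had a median of -0.05 in replicates 5 and 6 and 0.10 in replicates 3 and 4 of 0.5% quercetin. Among genes of this list and of clock protein turnover, some had their 0.5% quercetin extreme in the middle pair. Usp2, a deubiquitinase of the turnover list, was 5.09 and 4.77, then 6.92 and 6.42, then 5.59 and 5.32 there, while the high-numbered 0.1% quercetin mice were at 7.42 and 7.43. Noct, which encodes nocturnin, was 5.59 and 4.79, then 8.01 and 7.31, then 5.81 and 6.21. Upp2 had means of 7.33, 8.94 and 8.16 in the first, middle and last pairs. Elovl3 was 11.01 and 10.15, then 9.19 and 9.03, then 10.65 and 10.91. These 4 genes were picked for their values, and in each the middle pair of 0.5% quercetin lay beyond both other pairs. None passed the test for the middle pair (smallest adjusted p 0.129, Noct).

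The 0.5% quercetin difference for replicates 5 and 6 departed from the mean of the 3 groups for 170 genes (1.29% of those tested, limma adjusted p under 0.05). The departure subtracts values that chose the contrast, so it is a description. Alas1 had the largest departure among the 36 called genes, -2.98. It was 9.61 and 8.38, then 10.23 and 9.49, then 7.27 and 8.19 in 0.5% quercetin, so the last pair lay below the first. Ciart departed by -0.81 and Elovl3 by 2.10, with overlapping levels in 0.5% quercetin in both. The departures of Dbp and Npas2 were 0.74 and -0.04, and those of Arntl and Nfil3 0.84 and 0.51.

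The 10 smallest p-values in 0.5% quercetin, replicates 5 and 6, belonged to genes outside the clock lists. The differences were -2.62 (SE 0.11) for Ly6e, an interferon-induced gene, -3.89 (SE 0.28) for Cdkn1a and -2.40 (SE 0.19) for Phlda3, a p53-induced inhibitor of Akt. Other genes among the 10 were Ephx1 (-1.81), Cplane1, the cyclin gene Ccng1 (-1.72), Irf7 (-1.84), Mbl2 (-1.14), Tmem43 (-1.57) and Notch1 (-1.36). For replicates 3 and 4 the corresponding values were -0.15 for Ly6e, -0.79 for Cdkn1a and -0.35 for Phlda3. Of 17 p53 targets 11 were lower in replicates 5 and 6 (median -1.09), against 1.39% of all genes. In replicates 3 and 4 there were 0 (median -0.11), and 0 were called in the 3 groups (median 0.14). The mean p53 target level in 0.5% quercetin was 6.84 to 6.89 in replicates 1 and 2, 6.66 to 6.84 in replicates 3 and 4 and 5.69 to 5.77 in replicates 5 and 6. The controls were at 5.76 to 5.89.

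Kupffer cell and macrophage markers moved with the same mice. Of 13 tested, 6 were lower in 0.5% quercetin replicates 5 and 6 (median -0.55), against 1.39% of all genes, and 0 in replicates 3 and 4 (median 0.03). Their mean level was 7.14 to 7.22 in replicates 1 and 2, 7.11 to 7.13 in 3 and 4, and 6.63 in 5 and 6. The 6 controls were at 6.66 to 6.90, so the last pair lay near the lowest control. In the 3 groups 12 of 13 lay below 0, with a median of -0.09 (0.0989 on the values as deposited) and 0 called, and mean levels of 6.84 to 7.29 in low-numbered and 6.66 to 7.25 in high-numbered mice. CAR and PXR target genes, xenobiotic enzymes, had 5 of 20 lower in 0.5% quercetin replicates 5 and 6 (median -0.49), 0 in replicates 3 and 4 (median 0.14), and lay above 0 in 19 of 20 in the 3 groups (median 0.28, 0 called). Their mean level in 0.5% quercetin replicates 5 and 6 was 7.21 to 7.23, within the control range of 7.19 to 7.39. The part of these lists in the differences by number was not tested.

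Feeding and sterol lists are relevant because food intake is known to shift clock genes in the liver. Of 16 feeding and insulin induced genes 0 were called in the 3 groups and 14 lay below 0 (median -0.34), and of 16 cholesterol synthesis genes 0 were called and 15 lay below 0 (median -0.34). In 0.5% quercetin the medians were -0.62 and -0.38 for replicates 3 and 4 and 0.10 and 0.27 for replicates 5 and 6. Fasting induced genes had medians of 0.15 in the 3 groups, 0.29 in the middle pair and -0.07 in the last pair of 0.5% quercetin. Glucocorticoid responsive genes had 0.19, 0.56 and -0.10. In these 4 lists the middle pair had the sign of the 3 groups and the last pair the other sign, with 0 members called in the 3 groups and in the middle pair. For replicates 5 and 6 each list had 1 member called higher, and the fasting and glucocorticoid lists 1 lower. The shares of all genes were 0.853% higher and 1.39% lower. On the values as deposited the feeding and cholesterol medians of the last pair turned to -0.18 and -0.05, with -0.18 over all genes.

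**Figure D5:**
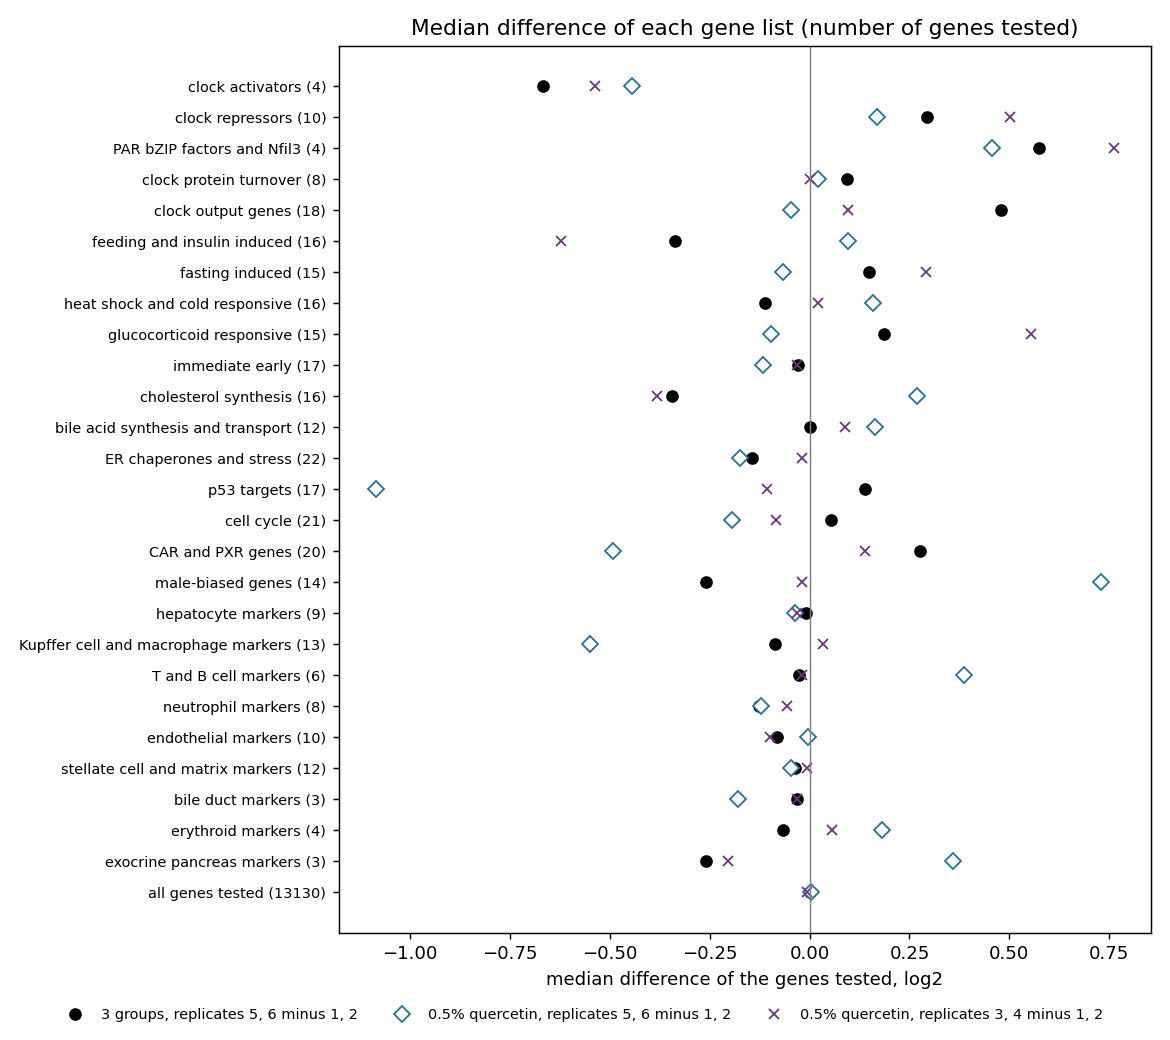
Median difference (log2) of the tested genes of each list, with the number tested in parentheses, for the 3 groups (black circles, replicates 5 and 6 minus 1 and 2) and for 0.5% quercetin replicates 5 and 6 (open diamonds) and 3 and 4 (crosses), each minus 1 and 2. Clock activators lie left of 0 in all 3 comparisons and the p53 targets are at -1.09 only in 0.5% quercetin replicates 5 and 6.

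The other lists had 0 members called in the 3 groups, apart from Cyp7a1 in bile acid synthesis and transport (median 0.0008 over 12 genes). Their medians in the 3 groups were 0.09 for clock protein turnover, -0.11 for heat shock, -0.03 for immediate early, -0.15 for ER chaperone and 0.05 for cell cycle genes. Male-biased genes had -0.26 in the 3 groups and 0.73 in 0.5% quercetin replicates 5 and 6. There 12 of 14 lay above 0 and 1 was called higher, against 0.853% of all genes. The mean level of the list in those mice was 9.84 to 10.05, within the control range of 9.58 to 10.07. In replicates 3 and 4 their median was -0.02 with 0 called. Markers of T and B cells (-0.03), neutrophils (-0.13), endothelium (-0.08), stellate cells and matrix (-0.04), bile duct (-0.03), erythroid cells (-0.07), exocrine pancreas (-0.26) and adipocytes (-0.15) lay close to or below 0 in the 3 groups. On the values as deposited, most of these small negative medians turned positive together with that of all genes: only those of male-biased genes, neutrophil, erythroid and exocrine pancreas markers did not.

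Replicates 3 and 4 were compared with each other in all 4 groups, 4 mice each. No gene was called (0 of 13130, with 555 at an unadjusted limma p under 0.05). Dbp differed by 0.12 ± 0.25 and Arntl by -0.05 ± 0.19. These are adjacent numbers, while the 3-group contrast sets numbers further apart and was chosen on these genes, so the sizes are not comparable. Dbp was higher in replicate 4 than in 3 in STZ and lower in each other group. Of the 36 called genes 20 (55.6%) had the sign of the 3-group difference, against 48.8% of all genes. In level, Dbp of replicates 3 and 4 lay between the low-numbered and high-numbered pairs in control (8.06 and 7.95), overlapped the low-numbered pair in STZ (6.50 and 7.84), and lay with the high-numbered pair in 0.1% quercetin (9.38 and 9.08) and 0.5% quercetin (9.49 and 9.02). The place of the middle numbers differed by group in these data, without a test of that difference.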

How the data were processed

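Liver RNA of 24 mice was hybridised to Affymetrix arrays, 1 per mouse. The authors deposited 1 linear intensity per probe set and array. The values hold no log scale, and their summary method and scaling are not given in the sources used here. The intensity values were quantile normalized over the 24 arrays and turned into log2(value + 16). Of 45101 probe sets, 34958 had 1 gene symbol, 932 had several and 9211 were unnamed. Each gene took its named probe set with the highest mean (18193 genes), and those at or above the 40th percentile of probe set means (13130) were tested. limma 3.58.1 (R 4.3.3) gave moderated tests with Benjamini-Hochberg adjustment over all tested genes at 0.05, the source of every adjusted p in the text. The 3 groups of the rule were fitted on 12 arrays with group as a block. The 0.5% quercetin contrasts, the single-group contrasts, the F test and the departures used 12 means of group and number class over 24 arrays. The number of arrays limits the precision. Nothing in the labels says whether mice of a group were independent beyond separate animals. Other scalings, constants, filters, probe set rules, covariates, number classes and single mice left out were tried.

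Named genes were Dbp, Arntl and Npas2, all tested clock genes, the 10 largest differences in each direction among called genes separated in each group, the called member with the largest difference of every other list (up to 3 for the clock and metabolic lists), and the 10 smallest p in 0.5% quercetin. The mice, members and 27 gene lists were chosen with earlier results of these data known. Of 375 list entries, 304 were tested, and 45 found no named probe set and were not analysed here.

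Shared replicate numbers were checked as pairs: same-numbered arrays had a mean correlation of deviations of 0.0118 over 36 pairs (5 over 0.1). No pairing was used, although a mean over all genes cannot settle whether the numbers pair mice. Promoter windows are from RefSeq, GRCm38.p6.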

Additional observations from a re-analysis of the deposited data

Results flagged for a closer look

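In 200 combinations of gene and group, 6 values, from 5 mice, lay far from the other 5 of their group by Dixon's criterion, which chance meets in about 1 of 20. Rora was at 6.029 in control replicate 3, with the nearest mouse at 6.895. Cry1 was at 5.943 in 0.5% quercetin replicate 1, with the next at 5.225. Nr1d1 was at 5.176 in 0.1% quercetin replicate 6, with the next at 6.328. STZ replicate 6 was high for Alas1 (10.49 against 8.709) and Fmo2 (8.289 against 6.554), both called higher in high-numbered mice. Coq8a was at 7.624 in 0.5% quercetin replicate 3, with the next at 8.373.

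Ciart, Cyp8b1 and Mfsd2a had unequal differences by number in control, STZ and 0.1% quercetin (limma F test, adjusted p = 0.01293 for each), in a fit on the mice that chose the contrast, so this is a description. The difference in 0.5% quercetin, replicates 5 and 6, departed from the mean of the 3 groups by -0.8058 for Ciart, -2.981 for Alas1, -0.8581 for Ldlrad3, 0.9501 for Efna1 and 0.7259 for Psen2 (log2). These subtract values that chose the contrast and are a description too. These 2 mice also had p53 target levels near those of the controls. The part of that in these differences was not tested.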

How the results depend on the processing

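The number of called genes in the 3 groups (36) was 5 with a constant of 1, 10 with no filter, 13 with the mean of probe sets, 12 with the Gapdh 3′-5′ covariate, 8 with replicates 4 to 6 against 1 to 3, 126 in the 24-array fit, 12 without the 0.1% quercetin group and 14 with the p53 list mean as a covariate. Of the 12 without the 0.1% quercetin group, 10 were among the 36. Without the control group the number was 24, only 6 of them among the 36. Without the STZ group the number was 41, 20 of them among the 36. With 1 mouse left out it ran from 9 (without 0.1% quercetin replicate 6) to 53 (without STZ replicate 5). As a random replicate block, the numbers gave 161 genes (consensus correlation -0.0395), and 295 in 0.5% quercetin, where the block moved little. Same-numbered arrays correlated over 0.1 in 5 of 36 pairs, and no pairing is claimed.

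In 0.5% quercetin (294) the count was 126 on the values as deposited, 195 with a constant of 1, 495 with a constant of 64, 151 with the Gapdh covariate, 0 with replicates 4 to 6 against 1 to 3, 120 on its 6 arrays alone and 4 as a slope over the 12 arrays outside the rule. It was 4 for replicates 3 and 4 against 1 and 2 and 0 with the p53 covariate, which there runs nearly along the contrast, so that fit says little. With 1 mouse left out it ran from 67 (without replicate 1) to 197 (without replicate 2), and a lone mouse was taken to vary like the other groups. The genes with unequal differences (3) were 7 on the values as deposited, 13 with median scaling, 0 with a constant of 1 and 10 with a constant of 64. Replicate 4 against 3 (0) gave 1 gene, lower, on the values as deposited.

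Of 1008 gene values recomputed in the 3 groups 486 kept their side of the threshold, 522 lost it and 0 changed sign. These values belong to the 36 genes already called there. Most settings refitted the same arrays or part of them, so the lack of sign changes was nearly fixed in advance. In 0.5% quercetin the values were those of Dbp, Arntl, Npas2, Bhlhe40, Ypel2, Pim3, Arhgap9 and Cpeb4. There 89 of 152 kept their side, 63 lost it and 0 changed sign. Arntl was not called in the first place, so its 19 values among the 89 are not kept calls. The other genes were already called there, so their signs had little room to change. The causes were not tested. The replicates 3 and 4 contrast, the departure from the 3 groups and the p53 covariate were chosen after seeing the data. Each arm in 0.5% quercetin holds 2 mice, and signals near 4 are at background, where Npas2, Ciart and low Arntl levels are compressed.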
